A study of Mus musculus with 8 samples.

Results

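The major urinary protein (Mup) genes encode small lipocalins, barrel-shaped carrier proteins that hepatocytes secrete into the blood and that pass into the urine, where they bind and slowly release volatile pheromones. Mice carry a large family of them side by side on 1 chromosome, and in liver their expression is known to be higher in males than in females and to follow the pulses of growth hormone through the kinase JAK2 and the transcription factor STAT5. The 10 Mup genes described here are Mup1, Mup3, Mup7, Mup9, Mup10, Mup11, Mup14, Mup17, Mup20 and Mup21, and they were chosen by the wide spread of the counts of Mup14 between livers, so that the spread of Mup14 is a description and carries no test. They are 10 of the 49 Mup genes and pseudogenes annotated among the 49585 genes of the series, and all 10 passed the filter on low counts, which left 16496 genes for testing.

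Livers of 8 male mice were sequenced after 3 months on a high-fat, choline-deficient diet (HFCD) that began at 21 days of age. The 2 LPfl/+ livers carried Alb-CreTG and Trp53fl/+, in which 1 allele of Trp53, the gene of the tumor suppressor p53, is deleted by Cre, and the 3 LP245/+ livers carried Alb-CreTG and Trp53wm-R245W/+, in which Cre switches 1 allele from wild-type to mutant p53 R245W. By their labels the 3 LP+/+ livers were Cre-negative (Alb-Cre0) and kept an unrecombined allele, Trp53fl/+ in replicates 1 and 2 and Trp53wm-R245W/+ in replicate 3, whereas the results of the study name LP+/+ as Alb-Cre carriers. The albumin promoter drives Cre in hepatocytes and cholangiocytes, so other cells of the LPfl/+ and LP245/+ livers kept wild-type p53. Libraries held between 26304526 and 31370714 read counts, and by their library numbers they form 1 series with the 3 LP245/+ livers and LP+/+ replicates 2 and 3 and another with LP+/+ replicate 1 and both LPfl/+ livers. Genotype and series therefore overlap, and no series held both LPfl/+ and LP245/+ livers. The Y-linked gene Ddx3y was present in every liver, between 2944 and 3839 normalised counts, and Xist, which silences the second X chromosome of females, reached at most 25.2. Normalised counts are read counts divided by the size factor of the library.

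The sequences of the genes come first because they decide which reads can be told apart. On chromosome 4 of GRCm38 all 10 genes lie on the minus strand, from Mup7 at chr4:60066469-60070475 to Mup21 at chr4:62147932-62150863. Mup14 lies at chr4:61300023-61304000. The coding sequences of Mup1, Mup7, Mup9, Mup10, Mup11, Mup14 and Mup17 were between 98.3% and 99.6% identical to each other, and these 7 are called the near-identical genes. Mup20, at chr4:62050234-62054158, was 90.5% identical to Mup14, Mup21 84.6% and Mup3, at chr4:62083476-62087342, 83.4%. The same 76 coding bases, bases 31 to 106 of the Mup14 coding sequence and as long as 1 read, are printed 5′ to 3′ from the GENCODE M21 transcripts, to show what a read from each gene looks like. Capitals mark bases that differ from Mup14.
Mup14: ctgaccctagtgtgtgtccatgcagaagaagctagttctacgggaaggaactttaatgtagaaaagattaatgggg
Mup17: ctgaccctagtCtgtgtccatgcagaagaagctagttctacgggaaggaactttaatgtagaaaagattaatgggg
Mup20: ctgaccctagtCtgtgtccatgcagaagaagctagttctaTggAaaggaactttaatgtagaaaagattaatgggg
Mup21: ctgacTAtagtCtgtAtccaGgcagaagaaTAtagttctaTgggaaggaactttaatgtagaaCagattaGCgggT
Mup3: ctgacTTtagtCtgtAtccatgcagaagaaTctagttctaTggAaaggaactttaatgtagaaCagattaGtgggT
In this window Mup7 had the bases of Mup14, and Mup1, Mup9, Mup10 and Mup11 had those of Mup17, with 1 difference from Mup14. Mup20 differed from Mup14 at 3 bases, Mup3 at 10 and Mup21 at 12. A read from this window thus separated Mup3, Mup20 and Mup21 from the near-identical genes, and did not tell 1 near-identical gene from all the others.

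Over whole transcripts the same contrast held. Of the 76-base windows of Mup3, 94.7% were found in no other annotated gene, and for Mup21 the share was 90.0%. Mup20 had 56.6% such windows, with 43.4% shared with the pseudogene Mup-ps19. For the near-identical genes the share was 42.3% in Mup1, 31.7% in Mup17, 26.4% in Mup11, 25.8% in Mup10, 20.8% in Mup14 and 19.2% in Mup7, and 408 of the 1630 windows of Mup9 were its own. STAR leaves reads that match several places out of its gene counts, so counts of the near-identical genes rest on the minority of their sequence that is their own, and on the mate read where it reaches such a stretch. Mup15 had 0% such windows and still held up to 16636 counts in a liver. Levels of the 7 near-identical genes are therefore uncertain, and a read of 1 may have been counted for another.

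The stretch before the transcription start was read for 8 of the 10 genes from the RefSeq promoter table (GRCm38.p6, 250 bases before the start and 50 after it), and 3 promoters are printed 5′ to 3′ on the minus strand, those of Mup14 and Mup17, whose counts varied widely and together, and of Mup3, whose counts did not. Capitals mark the TATA sequence TATATAA.
Mup14 (chr4:61303949-61304248): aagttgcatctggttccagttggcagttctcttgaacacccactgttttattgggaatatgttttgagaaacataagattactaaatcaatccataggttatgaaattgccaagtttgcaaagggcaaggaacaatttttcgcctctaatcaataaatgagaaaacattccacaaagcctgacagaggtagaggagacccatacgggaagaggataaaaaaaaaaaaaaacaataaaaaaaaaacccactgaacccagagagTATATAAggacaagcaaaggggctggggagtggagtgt
Mup17 (chr4:61595783-61596082): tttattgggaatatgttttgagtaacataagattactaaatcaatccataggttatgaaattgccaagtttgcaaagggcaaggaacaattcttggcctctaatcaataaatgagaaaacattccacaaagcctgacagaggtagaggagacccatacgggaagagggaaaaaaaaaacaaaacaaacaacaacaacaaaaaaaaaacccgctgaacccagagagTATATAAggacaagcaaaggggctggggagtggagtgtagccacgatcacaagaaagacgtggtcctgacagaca
Mup3 (chr4:62087268-62087567): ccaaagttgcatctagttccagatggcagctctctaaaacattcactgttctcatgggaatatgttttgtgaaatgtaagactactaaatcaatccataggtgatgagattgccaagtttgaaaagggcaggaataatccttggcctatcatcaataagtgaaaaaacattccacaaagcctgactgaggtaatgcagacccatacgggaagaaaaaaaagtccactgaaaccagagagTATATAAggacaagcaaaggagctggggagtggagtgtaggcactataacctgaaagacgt
TATATAA was searched on both strands and was found in the windows of 7 of the 8 genes, against 3.2% of the 32851 promoters in the table. Relative to the annotated start, its first base lay at positions from -31 in Mup9 to 12, after the start, in Mup14. The Mup7 window had no match, but it ended before the stretch that holds TATATAA in the other genes. Whether Mup7 has the sequence was therefore not seen. The gamma-activated sequence TTCNNNGAA, the motif STAT5 binds, was found in 0 of the 8 windows and in 8.3% of all promoters. TGTTCT, the core of the motif that androgen and glucocorticoid receptors share, was found in 2 of the 8, Mup3 and Mup21, and in 19.0% of all promoters. Each match is a run of letters in this window of 300 bases and says nothing about binding.

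Mup genes together took between 0.992% and 1.86% of all counts of a liver. LP+/+ replicate 1 had the highest share, 1.859% (exact 95% binomial interval 1.854 to 1.864), and LP+/+ replicate 2 the lowest, 0.992% (0.988 to 0.995), and these intervals cover counting error only. The mean share of LP+/+ livers was 1.41% ± 0.435 (SD, n = 3), that of LPfl/+ livers 1.47% ± 0.288 (SD, n = 2) and that of LP245/+ livers 1.34% ± 0.148 (SD, n = 3), and the genotypes overlapped. The 10 genes held between 93.6% and 99.1% of all Mup counts. Mup3 alone took between 0.829% and 1.18% of a library. The 8 genes other than Mup3 and Mup20 took 0.600% of LP+/+ replicate 1, 0.0377% of replicate 2 and 0.0403% of replicate 3, and between 0.0741% and 0.230% of the other 5 livers.

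**Figure D1:**
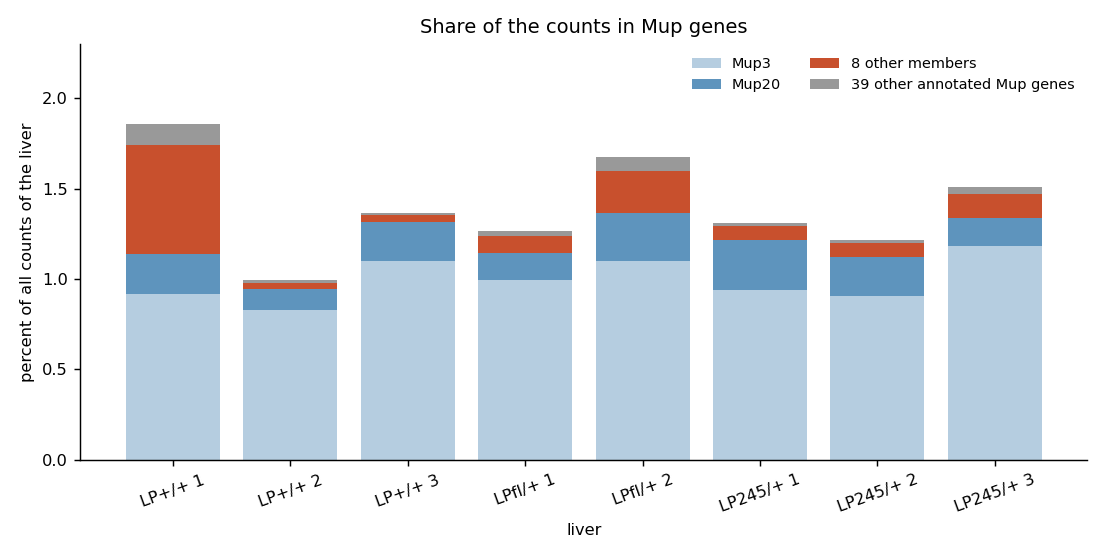
Percent of all read counts of each of the 8 livers that fell in Mup genes, stacked as Mup3, Mup20, the 8 other members and the 39 other annotated Mup genes and pseudogenes. Mup3 is the largest part of every bar, with 49.4% of the Mup counts in LP+/+ replicate 1. The 8 other members reach 0.600% in LP+/+ replicate 1 and 0.0377% in LP+/+ replicate 2.

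Levels were compared between genes per kilobase of exon and 1000000 counts. On this scale Mup3 stood highest at 9329 ± 1131 (SD over the 8 livers), followed by Mup20 at 2171 ± 618. Then came Mup7 at 789 ± 931, Mup21 at 319 ± 145, Mup17 at 171 ± 289 and Mup9 at 131 ± 231. Lower levels were those of Mup14 at 80.2 ± 128, Mup11 at 62.3 ± 72.9, Mup1 at 8.62 ± 5.22 and Mup10 at 0.476 ± 0.519. Mup3 and Mup20 did not overlap in any pair of livers, while the ranges of neighbours from Mup7 to Mup1 in this order overlapped. Of these neighbouring pairs only Mup11 and Mup1 kept their order in every liver. Mup11 was above Mup1 by 6.80 against 6.27 in LP+/+ replicate 2 and by 235 against 18.8 in replicate 1. In LP+/+ replicate 1 the level of Mup7, 2946, was above that of Mup20, 2382. Per kilobase of sequence found in no other gene, the level of Mup7 was 3845 ± 4535, beside 4171 ± 1187 for Mup20 and 9217 ± 1117 for Mup3. The length used thus moved Mup7 from well below Mup20 to near it.

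Mup14 had 14805 normalised counts in LP+/+ replicate 1, 318 in replicate 2 and 213 in replicate 3. In LPfl/+ the 2 livers had 1438 and 3753, and in LP245/+ the 3 livers had 1075, 1318 and 1621. The highest and the lowest liver of all 8 were thus both LP+/+, a 69.6-fold range, and the LPfl/+ and LP245/+ livers lay between them. The SD of log2(normalised count + 1) over the livers was 1.92, the 64th highest of the 16496 genes tested, whose median SD was 0.23. Without LP+/+ replicate 1 it was 1.43.

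Mup7, the near-identical gene with the most counts, had 83786, 4171 and 5976 normalised counts in LP+/+ replicates 1 to 3, 13603 and 32908 in LPfl/+, and 10809.9, 11029 and 19086 in LP245/+. Its order of livers was close to that of Mup14, with LP+/+ replicate 1 at the top, LPfl/+ replicate 2 next and LP+/+ replicates 2 and 3 at the bottom. Mup17 had 22052, 223 and 449 in LP+/+ livers, 1558 and 5889.9 in LPfl/+ livers and 1764, 1949 and 972 in LP245/+ livers. Mup11 had 10198, 312 and 774 in LP+/+ livers, 1062 and 2987 in LPfl/+ livers and 2331, 2147 and 2039 in LP245/+ livers. Its 3 LP245/+ livers lay within an SD of 148 around 2172, whereas the LP+/+ livers of the same gene spanned a 32.7-fold range. Highest over lowest liver was 20.1-fold for Mup7 and 99-fold for Mup17.

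Mup9 varied most of the 10 genes. It had 28034, 546 and 24.5 normalised counts in LP+/+ replicates 1 to 3, 3912 and 7556 in LPfl/+, and 126, 70.7 and 3030.4 in LP245/+. LP+/+ replicate 3 and LP245/+ replicates 1 and 2 were low while LP245/+ replicate 3 was high, so that highest and lowest liver differed 42.9-fold within LP245/+ alone. Its SD of 3.58 ranked 5th of all genes tested, and its range was 1146-fold. Mup10 was near the floor of 3 counts and had the same 3 lowest livers, with 60, 7 and 4 read counts in LP+/+ livers, 24 and 33 in LPfl/+, and 2, 2 and 17 in LP245/+. Mup1, whose protein has been tied to glucose metabolism, had 818, 289 and 99.8 normalised counts in LP+/+ livers, 344 and 497 in LPfl/+ livers and 318, 177 and 528 in LP245/+ livers, an 8.2-fold range with the lowest value again in LP+/+ replicate 3.

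The 3 genes with more distinct sequences varied less. Mup3 had 252977, 241432 and 324804 normalised counts in LP+/+ livers, 279526 and 292696 in LPfl/+ livers and 255789, 258649 and 359522 in LP245/+ livers. Its range was 1.49-fold and its SD of 0.20 was below the median of all genes tested, the only one of the 10 of which this was true. Mup20, known as darcin, the male pheromone that attracts females, had 60858, 33083 and 62998 in LP+/+ livers, 42353 and 70682 in LPfl/+ livers and 75098, 61946 and 46930.5 in LP245/+ livers. Mup21 had 5409, 5113 and 4368 in LP+/+ livers, 4274 and 7616 in LPfl/+ livers and 3704, 5866 and 13023 in LP245/+ livers. LP+/+ replicate 1, the highest liver for all 7 near-identical genes, was in the middle of the livers for Mup20 and Mup21, and the highest liver was LP245/+ replicate 1 for Mup20 and LP245/+ replicate 3 for Mup21 and Mup3. The SDs were 0.41 for Mup20 and 0.58 for Mup21, beside 0.95 to 3.58 for the near-identical genes.

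**Figure D2:**
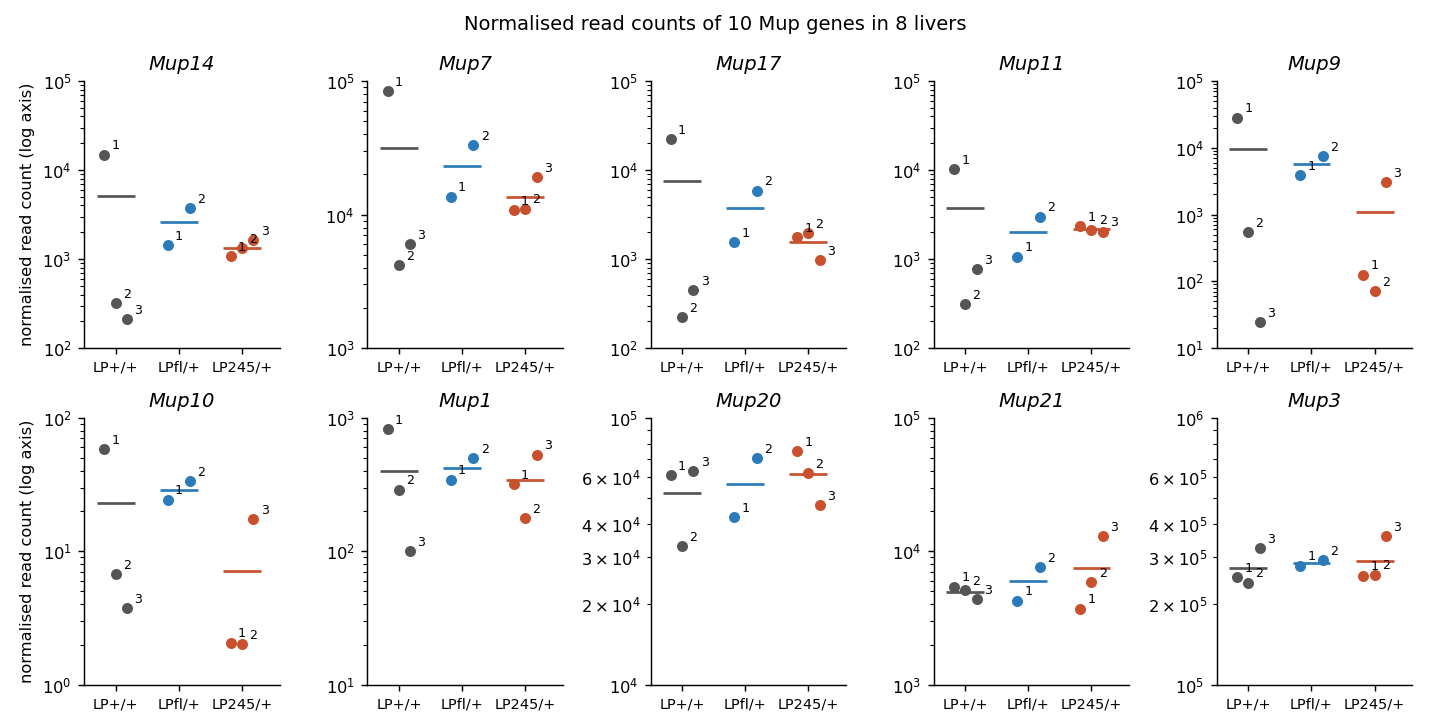
Normalised read counts (log axis) of the 10 Mup genes in the 3 genotypes, with 1 point per liver labelled by its replicate number and a line at the genotype mean. LP+/+ replicate 1 is the highest liver for the 7 genes from Mup14 to Mup1, and the 8 livers of Mup3 lie between 241432 and 359522.

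Pearson's r with Mup14 was computed on log2(normalised count + 1) over the 8 livers, which share library size and paralogue reads, and is given without a test. It was 0.97 for Mup7, 0.95 for Mup17, 0.91 for Mup11, 0.83 for Mup1, 0.80 for Mup9 and 0.72 for Mup10. For the distinct genes it was 0.33 for Mup20, 0.28 for Mup21 and -0.15 for Mup3. Spearman's rho ranged from 0.76 to 0.98 for the 6 near-identical genes and from -0.02 to 0.55 for the 3 distinct ones. Without LP+/+ replicates 1 and 3, the livers farthest from the median of Mup14, r stayed at 0.98 for Mup7, 0.93 for Mup17 and 0.87 for Mup11, and was 0.46 for Mup1, 0.48 for Mup9 and 0.50 for Mup10. The relation of the last 3 genes to Mup14 thus rested largely on those livers. Among themselves Mup9 and Mup10 had an r of 0.95, and Mup1 and Mup9 of 0.92. LP+/+ replicates 2 and 3 were the lowest livers for Mup14, Mup7, Mup17 and Mup11, whereas for Mup9 and Mup10 the lowest 3 were LP+/+ replicate 3 and LP245/+ replicates 1 and 2. By rank Mup9 (rho 0.88) and Mup1 (0.905) were nearer to Mup14 than Mup17, Mup11 and Mup10 (0.76 each), so the groups by r are not those by rank.

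**Figure D3:**
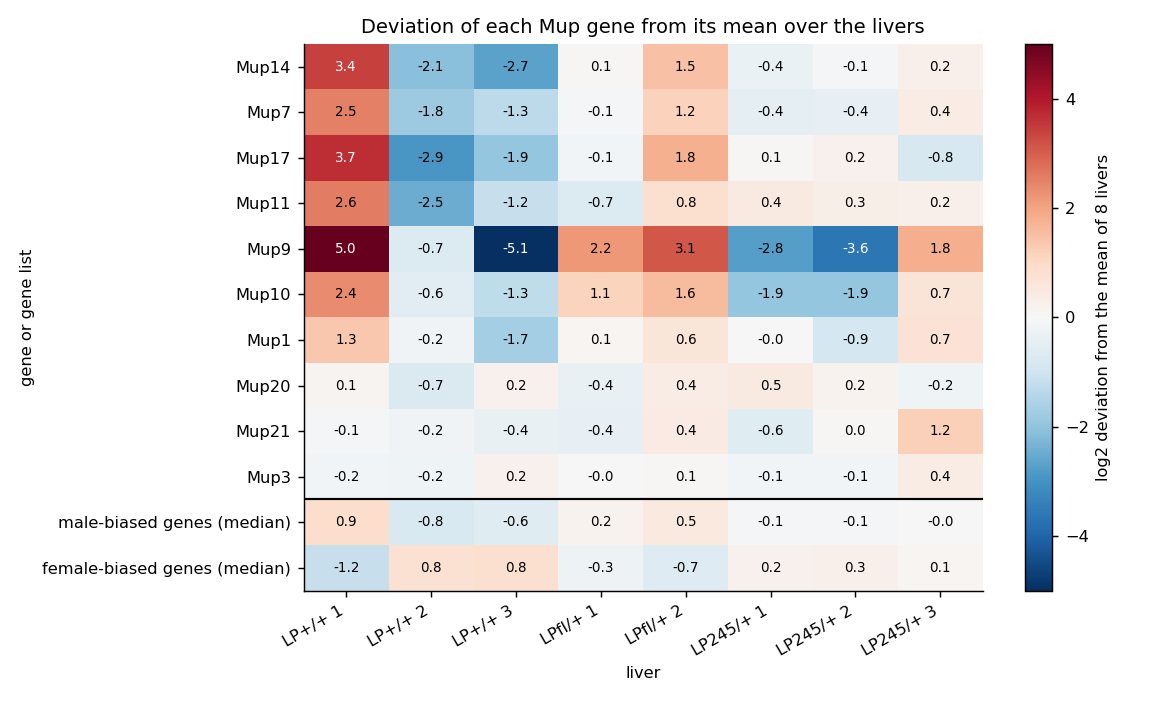
Log2 deviation of the normalised count + 1 of each Mup gene from its mean over the 8 livers, with the medians of the male-biased and female-biased gene lists in the lowest rows. The near-identical genes are red in LP+/+ replicate 1 and LPfl/+ replicate 2. Mup9 and Mup10 are also above their means in LPfl/+ replicate 1 and LP245/+ replicate 3. LP+/+ replicate 3 and LP245/+ replicates 1 and 2 are blue for Mup9 and Mup10.

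Of the 39 other annotated Mup genes and pseudogenes, 13 had at least 50 counts in some liver. Mup15 (16073 normalised counts in LP+/+ replicate 1 and 118 in replicate 2), Mup16 and Mup18 varied with Mup14, with r of 0.91, 0.94 and 0.97. So did Mup2, Mup13, Mup19 and the pseudogenes Mup-ps12, Mup-ps13 and Mup-ps16, with r between 0.736 and 0.905. Mup22 had 1090.1 to 2591 normalised counts and an r of 0.53. Mup8, Mup12 and Mup-ps4 were low in the same livers as Mup9. In LP+/+ replicate 3 and LP245/+ replicates 1 and 2, Mup12 had 215, 688 and 355 normalised counts, and in the other livers between 1280.1 and 9792. Mup8 had 2.82, 19.6 and 19.2 in those 3 livers and at least 108 in the others. Mup-ps4 had 0, 0 and 2 read counts in them and between 49 and 275 in the others. These genes were set beside Mup9 after their values were seen, and their order of livers was not that of a genotype.

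LP245/+ livers were compared with LP+/+ livers to ask whether p53 R245W in hepatocytes changed the Mup genes. Of the 9 Mup genes other than Mup14, 0 passed the cutoff, a log2 fold change of 1 or more in size with an adjusted p no higher than 0.05 by edgeR's quasi-likelihood test, and 1 of the 16496 genes tested did (0.00606%). At an unadjusted p below 0.05 there were 0 of the 9 genes by edgeR, beside 978 of all genes tested, and 0 by DESeq2. Without the filter on low counts 5 of the 9 had an unadjusted p below 0.05, and with the library series as a covariate 3 did. The share of all genes at that p in these fits is not given, so neither count can be set against it. None of the 9 was among the 10 genes DESeq2 called (0.0331%) or the 3 called with that covariate (0.0182%). With Mup14 among them, the fold changes were negative in 7 genes and positive in 3. The median of the 9 genes without Mup14 was -0.78, beside 0.00 for all genes tested. Mup14 averaged 5112 ± 8395 (SD, n = 3) normalised counts in LP+/+ and 1338 ± 274 (SD, n = 3) in LP245/+, a log2 fold change of -1.92 that is given without a test. Mup9 had a log2 fold change of -3.15 (SE 1.92, edgeR adjusted p = 0.839), Mup17 of -2.27 (SE 1.35, edgeR adjusted p = 0.839) and Mup10 of -1.65 (SE 1.04, edgeR adjusted p = 0.846). Mup7 had -1.19 (SE 0.94), Mup11 -0.78 (SE 0.98) and Mup1 -0.23 (SE 0.62). The positive values were 0.61 (SE 0.39) for Mup21, 0.24 (SE 0.28) for Mup20 and 0.10 (SE 0.17) for Mup3. In none of the 10 genes were the livers of the 2 genotypes separate, whereas they were in 11.8% of all genes tested.

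LP+/+ replicate 1 decided the direction in this comparison. Without it, the log2 fold change was 2.35 for Mup14, 2.23 for Mup17, 2.01 for Mup11, 1.92 for Mup9, 1.44 for Mup7, 0.82 for Mup1 and 0.45 for Mup10, each the opposite sign. None of the 9 genes other than Mup14 passed the cutoff then, and 3 of all genes tested passed it (0.0184%). Of the 9, 3 had an unadjusted p below 0.05, with no share of all genes to set beside them. Within the library series that held LP245/+ livers and LP+/+ replicates 2 and 3, the log2 ratio of mean normalised counts was 2.33 for Mup14, 2.22 for Mup17, 0.35 for Mup20, 0.67 for Mup21 and 0.04 for Mup3. The fold changes of Mup20, Mup21 and Mup3 thus kept their sign without that liver, and those of the 7 near-identical genes did not.

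LPfl/+ livers were compared with LP+/+ livers to ask what the loss of 1 Trp53 allele changed. By edgeR 0 of the 9 Mup genes other than Mup14 and 0 of all genes tested (0%) passed the cutoff. At an unadjusted p below 0.05 there were 0 of the 9, beside 1137 of all genes tested. With DESeq2 the 2 counts were also 0, beside 9 calls among all genes (0.0298%). With the library series as a covariate 0 of the 9 were among 3 calls (0.0182%). In that fit 3 of the 9 had an unadjusted p below 0.05, with no share of all genes to set beside them. Of the 10 log2 fold changes, with Mup14 among them, 5 were positive and 5 negative. The median of the 9 genes without Mup14 was 0.07, beside 0.00 for all genes. Mup17 had a log2 fold change of -1.02 (SE 1.48, edgeR adjusted p = 0.911), and Mup14, without a test, of -0.97. Mup11 had -0.89 (SE 1.12), Mup9 -0.73 (SE 2.02) and Mup7 -0.42 (SE 1.05). Mup10 had 0.35 (SE 0.99), Mup21 0.27 (SE 0.43), Mup20 0.12 (SE 0.32), Mup3 0.08 (SE 0.19) and Mup1 0.07 (SE 0.69). Livers of the 2 genotypes overlapped in all 10 genes and were separate in 25.1% of all genes tested. Without LP+/+ replicate 1, Mup17 was the 1 of the 9 that passed the cutoff (log2 fold change 3.48, edgeR adjusted p = 0.0424), among 59 of all genes (0.362%). Outside the 10, Mup16 (2.76) and Mup18 (3.80) passed it too. The fold change of Mup14, without a test, was 3.30, and those of Mup9, Mup7 and Mup11 turned to 4.34, 2.21 and 1.91. The LP+/+ and LPfl/+ livers left in that fit came from different library series, so genotype and series cannot be told apart in it. Within the series that held LP+/+ replicate 1 and both LPfl/+ livers the log2 ratio was -2.51 for Mup14 and -2.57 for Mup17, from a single LP+/+ liver.

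LP245/+ livers were set against LPfl/+ livers to ask whether the mutant allele acts as a loss of 1 allele does. By edgeR 0 of the 9 Mup genes other than Mup14 passed the cutoff and 0 of all genes tested (0%). At an unadjusted p below 0.05 there were 0 of the 9 by edgeR, beside 1404 of all genes tested, and 2 of the 9 without the filter on low counts or with the 2 genotypes alone. DESeq2 called 0 of the 9, with 1 at an unadjusted p below 0.05, and 56 of all genes (0.185%). The median log2 fold change of the 9 genes without Mup14 was -0.30, beside 0.00 for all genes. With Mup14 among them, 6 values were negative and 4 positive. Mup9 had -2.42 (SE 1.99, edgeR adjusted p = 0.783) and Mup10 -1.99 (SE 1.11, edgeR adjusted p = 0.666), and in these 2 the livers of the genotypes did not overlap, which was the case in 25.4% of all genes tested. Mup17 had -1.25 (SE 1.42), Mup14 -0.95 with no test, Mup7 -0.77 (SE 1.02) and Mup1 -0.30 (SE 0.69). Mup21, Mup20, Mup11 and Mup3 had values of 0.34, 0.12, 0.10 and 0.03. These livers came from different library series, so genotype and series cannot be told apart here. A fit with a series term, in which LP+/+ replicate 1 is the link between the series, gave 0 of the 9 among the 10 genes past the cutoff (0.0606%). In it 4 of the 9 had an unadjusted p below 0.05, and Mup14 had a value of 4.85, given with no test. Outside the main edgeR fit, the share of all genes at an unadjusted p below 0.05 is not given, so those counts cannot be set against it.

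**Figure D4:**
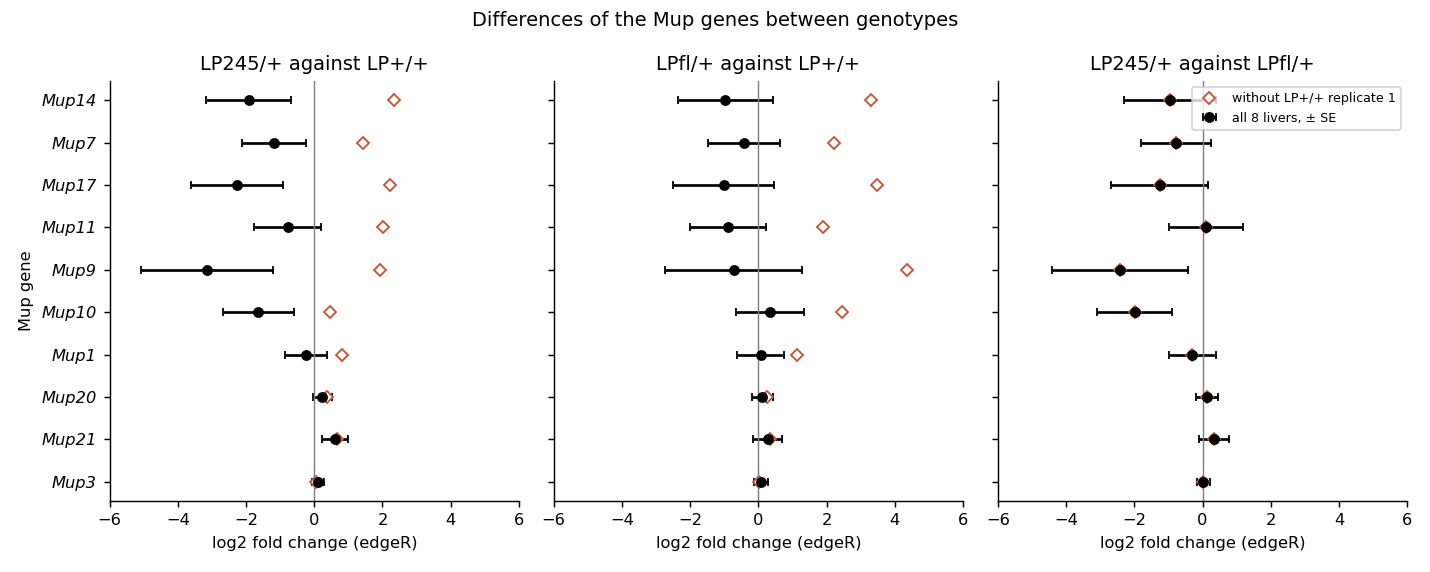
Log2 fold change (edgeR) of the 10 Mup genes in the 3 comparisons, as filled circles with the standard error for all 8 livers and as open diamonds without LP+/+ replicate 1. In both comparisons with LP+/+ the diamonds of Mup14 and Mup17 lie on the other side of 0 (2.35 and 2.23 for LP245/+, 3.30 and 3.48 for LPfl/+), and those of Mup3, Mup20 and Mup21 stay beside their circles.

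Of 26 genes known to be higher in male than in female mouse liver, 25 were tested, and 24 of them had a positive r with Mup14 over the 8 livers, with a median of 0.81 beside 0.01 for the 16466 tested genes outside the Mup family. The median log2 deviation of these 25 genes from their means was 0.89 in LP+/+ replicate 1, -0.76 in replicate 2 and -0.60 in replicate 3, 0.16 and 0.49 in LPfl/+, and -0.10, -0.07 and 0.00 in LP245/+. The livers thus stood in nearly the order of Mup14. No male-biased gene passed the cutoff by edgeR in the 3 comparisons. At an unadjusted p below 0.05 there were 1 higher and 2 lower in LP245/+ against LP+/+, beside 978 of the 16496 genes tested. There was 1 higher in LP245/+ against LPfl/+, beside 1404, and 0 in LPfl/+ against LP+/+, beside 1137. DESeq2 called 0 of the 25. Without LP+/+ replicate 1, 3 passed the cutoff as higher in LPfl/+ than in LP+/+, among 59 of all genes (0.362%). These were Selenbp2, a selenium-binding protein (log2 fold change 3.58), C6, a complement component (1.40), and Gstp1, a glutathione transferase (1.35). The LP+/+ and LPfl/+ livers left in that fit came from different library series, so genotype and series cannot be told apart between them. Moxd1, a monooxygenase-like gene, had 2223 normalised counts in LP+/+ replicate 1 and between 0.961 and 39.4 in the other 7 livers. Its log2 fold change in LP245/+ against LP+/+ was -7.45 (SE 2.41, edgeR adjusted p = 0.794). Egfr, the receptor of epidermal growth factor, had 23645, 10861 and 11142 in LP+/+ livers, 12129.9 and 16096 in LPfl/+ livers and 37663, 25119 and 24827 in LP245/+ livers, with an r of 0.47. Etnppl had the 1 negative r, -0.86.

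Of 32 genes known to be higher in female liver, 24 were tested, and 22 of them had a negative r with Mup14, with a median of -0.82. Their median log2 deviation was -1.16 in LP+/+ replicate 1, 0.75 and 0.78 in replicates 2 and 3, -0.26 and -0.65 in LPfl/+, and 0.22, 0.26 and 0.08 in LP245/+. None passed the cutoff by edgeR in the 3 comparisons. In LPfl/+ against LP+/+, 8 were lower and 0 higher at an unadjusted p below 0.05, beside 1137 of the 16496 genes tested. There were 2 lower in LP245/+ against LP+/+, beside 978, and 3 higher and 1 lower in LP245/+ against LPfl/+, beside 1404. Without LP+/+ replicate 1, 5 passed the cutoff as lower in LPfl/+ than in LP+/+, among 59 of all genes (0.362%). These were Cyp2a22, Cyp2a5, Cyp2b13, Hao2 and Slc22a27, with log2 fold changes between -1.42 and -6.95. The LP+/+ and LPfl/+ livers left in that fit came from different library series, so genotype and series cannot be told apart between them. Cyp2a22 also passed the cutoff in LP245/+ against LP+/+ (-2.47), among 3 of all genes (0.0184%). Cyp2b13, a cytochrome P450 of female liver, had 0.966, 278 and 255 normalised counts in LP+/+ livers, 4.05 and 0 in LPfl/+, and 57.9, 111 and 19.4 in LP245/+. Cyp2a5, a coumarin hydroxylase, had 5801, 12634 and 10484 in LP+/+ and 5080.1 and 3503 in LPfl/+, a log2 fold change of -1.16 (SE 0.29, edgeR adjusted p = 0.697). DESeq2 called Cyp2a5 (DESeq2 adjusted p = 0.0113), among 9 of all genes (0.0298%). All 8 livers held Y-linked transcripts, so the difference between livers lay within males. LP+/+ replicate 1 was the only LP+/+ liver of its library series, so that liver and the series cannot be told apart among the LP+/+ livers.

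**Figure D5:**
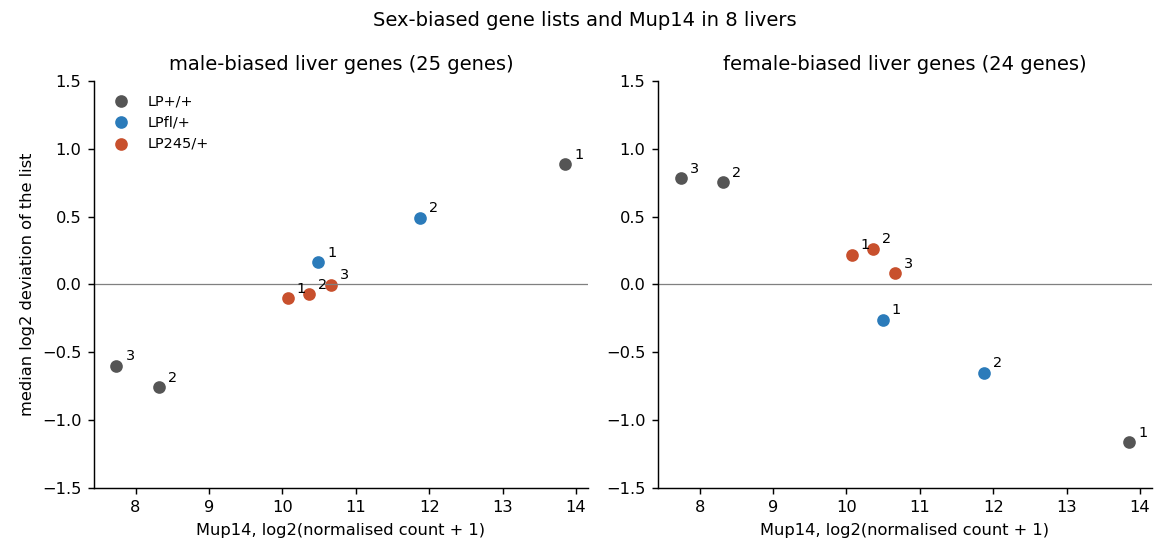
Median log2 deviation of 25 male-biased and 24 female-biased liver genes against log2(normalised count + 1) of Mup14, with 1 point per liver labelled by replicate number. The male-biased list runs from -0.76 to 0.89 as Mup14 rises, and the female-biased list from 0.78 to -1.16.

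Genes of the growth hormone to STAT5 list went both ways with Mup14. Of the 25 tested, 13 had a positive and 12 a negative r, from -0.74 to 0.95 with a median of 0.01. The list had median deviations between -0.04 and 0.05 in the 8 livers, and 0 passed the cutoff by edgeR and by DESeq2. By edgeR 1 of 25 had an unadjusted p below 0.05 in LP245/+ against LPfl/+, beside 1404 of the 16496 genes tested. There were 0 in LP245/+ against LP+/+, beside 978, and 0 in LPfl/+ against LP+/+, beside 1137. Ghr, the growth hormone receptor, had between 23027 and 27507 normalised counts, Jak2, its kinase, between 907 and 1009, and Stat5b, the STAT5 form most tied to male expression, between 1973 and 3125. Cish, a feedback inhibitor that STAT5 induces, had 197, 26.9 and 103 in LP+/+ livers, 32.4 and 505 in LPfl/+ livers and 105, 50.5 and 23.4 in LP245/+ livers, with an r of 0.49. Hnf4a, a hepatocyte transcription factor, had a log2 fold change of 0.39 in LP245/+ against LPfl/+ (SE 0.14, edgeR adjusted p = 0.509). Bcl6, a repressor that opposes STAT5 at its targets, had 315, 1739 and 1031 in LP+/+ livers, 982 and 420.1 in LPfl/+ livers and 965, 1257 and 1962 in LP245/+ livers, with an r of -0.74. Ghr, Jak2, Stat5b and Bcl6 were named after their values were seen.

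Of the 15 other lipocalins tested, 6 had a positive and 9 a negative r with Mup14, with a median of -0.12. By edgeR 0 passed the cutoff. At an unadjusted p below 0.05, 3 were lower in LP245/+ against LP+/+, beside 978 of the 16496 genes tested. There were 2 lower in LP245/+ against LPfl/+, beside 1404, and 0 in LPfl/+ against LP+/+, beside 1137. Orm2, an acid glycoprotein of the lipocalin family, had a log2 fold change of -1.22 in LP245/+ against LP+/+ (SE 0.37, edgeR adjusted p = 0.794) and Orm1 of -0.41 (SE 0.14, edgeR adjusted p = 0.794). DESeq2 called 0 of them. Of 20 acute phase genes 0 passed the cutoff by edgeR, and their median r was -0.28. At an unadjusted p below 0.05, 3 were lower in LP245/+ against LP+/+ and 3 lower in LP245/+ against LPfl/+. In LPfl/+ against LP+/+ 1 was higher. The counts of all genes at that p are those given beside the lipocalins. Saa3, a serum amyloid, had a log2 fold change of -1.68 in LP245/+ against LPfl/+ (SE 0.32, edgeR adjusted p = 0.362) and Saa1 of -1.43 (SE 0.28, edgeR adjusted p = 0.362). DESeq2 called both.

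Over the 11621 tested genes outside the Mup family with a mean of at least 50 normalised counts, those with the highest r with Mup14 included Nsmf (0.98), C6 (0.98), Ndst2 (0.95), Cebpa (0.95) and Prss8 (0.95). C6, which also stands in the male-biased list, had 10778, 2785 and 2743 normalised counts in LP+/+ livers, 6282 and 8237 in LPfl/+ livers and 4704, 4897 and 5091 in LP245/+ livers. Cebpa, a transcription factor of hepatocytes that also stands in the growth hormone to STAT5 list, lay within a narrow range, from 4103 to 4705. The 3 lowest were Gsta4 (-0.98), Cyp2b9 (-0.96) and Fth1 (-0.96). Cyp2b9, a female-biased P450, had 71.5, 8898 and 8331 in LP+/+ livers, 1049.7 and 229 in LPfl/+ livers and 1814, 3644 and 1134 in LP245/+ livers, so that LP+/+ replicate 1 was the lowest liver and replicates 2 and 3 were the highest. Without LP+/+ replicates 1 and 3, r was 0.97 for C6, -0.93 for Cyp2b9 and -0.99 for Gsta4, a glutathione transferase. The genes were picked for a high or low r from a large number, so the values describe these 8 livers.

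Markers of the cells a liver sample can hold were summed per liver. The 12 hepatocyte markers summed to between 3634729.8 and 4890706 in LP+/+ livers, 3513741 and 3783370.4 in LPfl/+ livers and 3629407 and 4179487 in LP245/+ livers, with a median r with Mup14 of -0.25. LP+/+ replicate 1, with the highest Mup14, had the lowest sum of the 3 LP+/+ livers. Most of each sum was Alb, with 2150500, 2962615 and 3321176 normalised counts in LP+/+ replicates 1 to 3. The median log2 deviation of the 12 markers was 0.04, 0.06 and 0.11 in these livers. The 7 macrophage markers summed to between 7421 and 8160.3 in LP+/+ livers, 6809.8 and 9317 in LPfl/+ livers and 6106 and 7267 in LP245/+ livers, and the 6 cholangiocyte markers to between 845 and 1016 in LP+/+ livers, 774 and 1144 in LPfl/+ livers and 659 and 991 in LP245/+ livers. The 7 stellate cell markers summed to between 13032 and 14624 in LP+/+ livers, 11593 and 14053 in LPfl/+ livers and 13884 and 14519.7 in LP245/+ livers, and the 6 endothelial markers to between 9868 and 12807 in LP+/+ livers, 8179.5 and 10775 in LPfl/+ livers and 11583 and 12310.3 in LP245/+ livers. The 7 lymphocyte markers were low, at between 92.2 and 199 in LP+/+ livers, 119 and 131 in LPfl/+ livers and 60.6 and 128 in LP245/+ livers. Of 7 markers of salivary, lacrimal and nasal glands, which also make Mup proteins, 2 (Prol1 and Obp1a) were at 0 in every liver, and the sum was carried by Amy1, which liver makes. In bulk tissue fewer hepatocytes and less RNA per hepatocyte cannot be told apart. Mitochondrial genes took between 5.88% and 9.70% of the counts of a library.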

How the data were processed

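RNA of 8 mouse livers was measured as stranded total RNA libraries with 76-base paired-end reads. The authors aligned the reads to GRCm38 with STAR and deposited raw read counts per gene, made by STAR on a GENCODE annotation whose release and strand setting are not given in the sources used here. Counts are whole numbers for 49585 genes, and 0 columns were left unmatched to a sample. Symbols, types and positions were taken from GENCODE M21 (GRCm38), which left 259 genes without a symbol. The members and gene lists were chosen with earlier results of these data known, and Mup14, whose spread chose them, was left out of counts of genes past the cutoff.

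Differences were tested with edgeR 4.0.16 (R 4.3.3, quasi-likelihood F test, TMM, filterByExpr by genotype), with all 8 livers in 1 fit and Benjamini-Hochberg adjustment over 16496 genes. The cutoff was a log2 fold change of 1 or more in size with an adjusted p no higher than 0.05, and the SE was taken from the F statistic. Labels do not say whether the livers come from separate litters or extractions, and p-values measure the spread between these livers. On simulated data for LP245/+ against LP+/+, 200 of 200 genes changed by a log2 fold change of 2 were recovered. There was 1 false call, and 16331 genes were tested. Recovery at the spread of the near-identical Mup genes was not tested. In the livers Mup17 had a log2 fold change of -2.27 (SE 1.35) in this comparison, with an edgeR adjusted p of 0.839. Spread and correlation used log2(count / size factor + 1) with DESeq2 1.42.0 size factors. Levels used counts per kilobase of exon union and 1000000 counts. Shares had Clopper-Pearson 95% intervals, and the floor was 3 counts per library. Windows of 76 bases were compared across all annotated GENCODE transcripts, and coding sequences were aligned end to end.

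All 10 members were named. Other Mup genes were named at 50 or more counts in a liver, and from each list the genes past the cutoff or, with none, the 2 with the smallest unadjusted p. The 6 genes with the highest and the 3 with the lowest Pearson's r with Mup14 were named, of those with a mean of at least 50, and 1 of them is not reported here. Alternatives covered DESeq2, other size factors, other filters, 2 genotypes only, no fold cutoff, a replicate block, the library series and each liver left out. Cell type markers were given as sums. Spink3 and Lacrt were not found by symbol. Figures were drawn with Python 3.11.15 and matplotlib 3.10.9.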

Additional observations from a re-analysis of the deposited data

How the results depend on the processing

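Leaving out 1 liver at a time, the log2 fold change of LP245/+ against LP+/+ ran from -0.70 to 0.82 for Mup1, -0.085 to 0.24 for Mup3, -1.71 to 1.44 for Mup7, -6.59 to 1.92 for Mup9, -3.40 to 0.45 for Mup10, -1.33 to 2.01 for Mup11, -2.49 to 2.35 for Mup14, -2.84 to 2.23 for Mup17, -0.014 to 0.39 for Mup20 and -0.05 to 0.93 for Mup21. For LPfl/+ against LP+/+ it ran from -0.40 to 1.12 (Mup1), -0.02 to 0.21 (Mup3), -1.20 to 2.21 (Mup7), -1.32 to 4.34 (Mup9), -0.17 to 2.44 (Mup10), -1.82 to 1.91 (Mup11), -1.83 to 3.30 (Mup14), -2.28 to 3.48 (Mup17), -0.31 to 0.43 (Mup20) and -0.22 to 0.61 (Mup21). For LP245/+ against LPfl/+ it ran from -0.76 to 0.009 (Mup1), -0.15 to 0.12 (Mup3), -1.27 to 0.011 (Mup7), -0.46 to 1.04 (Mup11), -1.91 to 0.01 (Mup17), -0.20 to 0.54 (Mup20) and -0.31 to 0.82 (Mup21), and kept its sign for Mup9, Mup10 and Mup14. The high end in the comparisons with LP+/+ came from leaving out LP+/+ replicate 1 for Mup1, Mup7, Mup9, Mup10, Mup11, Mup14 and Mup17. The count of the 9 members other than Mup14 past the cutoff ran from 0 to 1 in LPfl/+ against LP+/+, of male-biased genes from 0 to 3 and of female-biased genes from 0 to 5, and in LP245/+ against LP+/+ of female-biased genes from 0 to 1, each highest without LP+/+ replicate 1. Without that liver 59 of all genes passed in LPfl/+ against LP+/+ (0.362%) and 3 in LP245/+ against LP+/+ (0.0184%). The count of acute phase genes ran from 0 to 1 in LP245/+ against LPfl/+, also highest without that liver, where 47 of all genes passed (0.288%).

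With the library series as a covariate, LP245/+ against LP+/+ turned to 0.82 (Mup1), 1.44 (Mup7), 1.92 (Mup9), 0.45 (Mup10), 2.01 (Mup11), 2.35 (Mup14) and 2.23 (Mup17). LPfl/+ against LP+/+ turned to -0.95 (Mup1), -0.997 (Mup10) and -0.10 (Mup20). LP245/+ against LPfl/+, linked only through LP+/+ replicate 1, turned to 1.78 (Mup1), -0.13 (Mup3), 3.28 (Mup7), 4.20 (Mup9), 1.45 (Mup10), 4.85 (Mup14) and 4.79 (Mup17). Under the same covariate 1 male-biased and 1 female-biased gene passed in LPfl/+ against LP+/+, among 3 of all genes (0.0182%). In LP245/+ against LP+/+ 1 female-biased gene passed, among 3 (0.0182%), and 2 in LP245/+ against LPfl/+, among 10 (0.0606%). Replicate numbers did not pair the livers, since same-numbered livers had correlations between -0.08 and 0.03, and with them as a block the fold change turned to 0.41 (Mup7), 1.39 (Mup9), 0.36 (Mup14) and 0.055 (Mup17) in LPfl/+ against LP+/+, to 0.076 (Mup11) in LP245/+ against LP+/+ and to -0.13 (Mup3) in LP245/+ against LPfl/+, with 0 of the 9 members past the cutoff. Scaled by library total, Mup3 had -0.053 in LP245/+ against LPfl/+.

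Without the filter on low counts, 1 male-biased gene and 1 lipocalin passed the cutoff in LP245/+ against LP+/+, 2 female-biased genes in LPfl/+ against LP+/+, and 1 male-biased, 1 female-biased and 2 acute phase genes in LP245/+ against LPfl/+. DESeq2 called 1 female-biased gene in LPfl/+ against LP+/+, among 9 of all genes (0.0298%). It called 2 acute phase genes in LP245/+ against LPfl/+, among 56 (0.185%). With only the genotypes compared 1 male-biased and 2 acute phase genes passed in LP245/+ against LPfl/+. For the fits without the filter and with only the genotypes compared, the share of all genes past the cutoff is not given. The list counts from those fits therefore cannot be set against it. Per kilobase found in no other gene, levels were 20.4 (Mup1), 3845 (Mup7), 480 (Mup9), 1.95 (Mup10), 236 (Mup11), 386 (Mup14), 586 (Mup17) and 4171 (Mup20) per 1000000 counts. By Spearman's rho 1 of the 6 genes most like Mup14 was shared with those named, and with library totals 3. Of the 506 fold changes computed under alternatives, 446 kept their sign and 60 did not. The spread of each gene and the Mup share of each genotype moved by less than the SD between livers under the alternatives run. Where a value changed, the cause was not tested.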
